A study of Mus musculus with 2 samples.

Results

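In all, 10 genes that mark hepatic stellate cells, the vitamin A-storing pericytes of the liver sinusoid, were followed across 2 liver sections profiled by spatial transcriptomics (ST). They were Reln, Dcn, Colec11, Lrat, Ecm1, Hgf, Rgs5, Pdgfrb, Des and Acta2, chosen by symbol, and all 10 were found among the 19465 genes listed in the count tables. Reln, Dcn, Colec11 and Ecm1 are the markers the study itself uses for stellate cells, and the remaining 6 are common markers of quiescent stellate cells, pericytes or myofibroblasts. The sections came, 1 each, from a mouse lacking AEG-1 in myeloid cells (AEG-1DMAC, the labels' spelling, with D for Δ) and from a littermate with floxed AEG-1 (AEG-1fl/fl). AEG-1 is encoded by Mtdh, and the knockout uses Cre driven by Lyz2, which acts in myeloid cells and not in stellate cells. The floxed allele is carried by the AEG-1fl/fl mouse as well. Both libraries are labelled as liver of 27-week-old mice on a high fat/high sugar diet (HF/HSD) from 7 weeks of age, whereas the methods of the study describe this assay on livers of mice fed control diet, so the diet of these mice could not be settled. It carries the same label in both.

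Quiescent stellate cells lie between hepatocytes and the sinusoidal endothelium, where they esterify retinol and keep it in lipid droplets. On injury they lose these droplets, respond to platelet-derived growth factor (PDGF) and become contractile, collagen-producing myofibroblasts, which makes them the main source of scar in fibrosis. Some of their markers are shared with other mesenchymal cells: Acta2 and Des are also made by vascular smooth muscle, and Rgs5 and Pdgfrb by pericytes around larger vessels. A Visium spot can hold several cells of different types, so these genes were read as levels in spots and not as counts of cells.

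The 4 promoters below are shown because their genes differed in the spots where they were high, Acta2 and Des in those of the vessel wall and Reln and Ecm1 in those of the sinusoid. Each is the 250 bases before the RefSeq start on GRCm38.p6, written 5′ to 3′ on the strand of the gene. Capitals mark matches on either strand to the CArG box, bound by serum response factor (with at most 1 G or C allowed in its A/T core), to TATAAA or TATATA, to the GC box GGGCGG, and to the AP-1 site TGANTCA. In the sequences printed, no match of one motif overlapped a match of another.
Acta2, chr19:34255374-34255623, minus strand: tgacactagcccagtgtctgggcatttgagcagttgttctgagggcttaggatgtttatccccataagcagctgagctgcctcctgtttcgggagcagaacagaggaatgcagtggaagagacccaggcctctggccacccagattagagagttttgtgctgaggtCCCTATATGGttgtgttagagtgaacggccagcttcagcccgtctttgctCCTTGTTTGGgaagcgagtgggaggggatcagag
Des, chr1:75360042-75360291, plus strand: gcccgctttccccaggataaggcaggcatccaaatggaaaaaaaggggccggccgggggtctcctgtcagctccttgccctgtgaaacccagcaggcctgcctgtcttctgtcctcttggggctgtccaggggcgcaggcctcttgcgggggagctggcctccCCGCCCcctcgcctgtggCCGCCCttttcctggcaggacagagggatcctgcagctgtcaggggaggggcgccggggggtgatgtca
Reln, chr5:22344706-22344955, minus strand: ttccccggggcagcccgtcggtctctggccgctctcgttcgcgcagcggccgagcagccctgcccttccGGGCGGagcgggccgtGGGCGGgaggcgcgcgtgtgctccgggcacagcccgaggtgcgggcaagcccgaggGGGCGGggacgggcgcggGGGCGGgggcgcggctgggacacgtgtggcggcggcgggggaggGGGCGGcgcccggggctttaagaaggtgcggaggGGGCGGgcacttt
Ecm1, chr3:95739570-95739819, minus strand: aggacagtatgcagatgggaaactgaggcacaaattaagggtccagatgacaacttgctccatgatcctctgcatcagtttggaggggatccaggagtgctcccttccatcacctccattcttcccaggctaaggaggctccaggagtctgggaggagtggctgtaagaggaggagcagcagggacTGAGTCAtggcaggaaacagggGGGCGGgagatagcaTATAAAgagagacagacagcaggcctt

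The Acta2 window held 2 CArG boxes, CCCTATATGG and CCTTGTTTGG, which began 84 and 34 bases before the RefSeq start. In the GENCODE coordinates given below for the gene, which reach 34255590 on its minus strand, both boxes lie inside the gene. The start of Acta2 thus differs between the 2 annotations. Windows with a CArG box made up 8.59% of 32851 promoters. The letters of a CArG box were not in the window of Des, which held 2 GC boxes. The Reln window held 6 GC boxes and no TATAAA, and the Ecm1 window held 1 TATAAA, 1 GC box and 1 AP-1 site. In all promoters the shares were 32.7% for the GC box, 12.4% for TATAAA, 5.25% for TATATA and 6.75% for TGANTCA. Entries were found for 8 of the 10 genes, not for Dcn and Pdgfrb, and of these 8 genes Lrat was the other with a CArG box. A match describes the letters of a window and says nothing of binding in these livers.

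After spot filtering the AEG-1DMAC library held 45453286 unique molecular identifiers (UMIs) in 2140 spots and the AEG-1fl/fl library 50322850 in 2540, with medians of 20929.5 and 18285 UMIs per spot. Both libraries were labelled with the same slide, and 1776 spot barcodes occurred in both, which are positions of the array design and not shared cells. Each genotype had 1 library, so the spread between mice is unknown, no test was run, and all intervals are 95% intervals that cover counting error only. Levels are given as CPM, the UMIs of a gene scaled to the total of the library. Mtdh itself was at 66.3 CPM in AEG-1DMAC and 60.2 CPM in AEG-1fl/fl, a value that sums over all cells of the spots and does not check the deletion in myeloid cells.

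The summed stellate cell genes were at a similar level in both sections, but they did not move as a block. Summed over the 10 genes, AEG-1DMAC had 477 CPM and AEG-1fl/fl 485 CPM, giving a log2 ratio of AEG-1DMAC over AEG-1fl/fl of -0.03 (-0.05 to 0.00). Colec11, Rgs5 and Pdgfrb were lower in AEG-1DMAC, Acta2 was higher, and the other 6 genes were within a log2 ratio of 0.15 of 0. The median over the 10 genes was -0.00, against 0.15 over the 6933 genes that reached a mean of 10 CPM, whose 5th and 95th percentiles were -0.29 and 0.54. Of the 10 genes, 8 reached that mean and Pdgfrb and Acta2 did not, and all 10 are described. A ratio of at least 1.5-fold with its interval on the same side was reached by 1 of the 10 genes in the higher direction, Acta2, and by 0 in the lower direction, where the shares over the 6933 genes were 4.3% and 1.79% (6.09% in either direction). Regardless of size, the interval lay above 0 for 4 of the 10 genes, below 0 for 4 and across 0 for 2, and over all genes it lay above 0 for 59.5% and below 0 for 11.7%. Albumin took 8.80% of UMIs in AEG-1DMAC and 14.2% in AEG-1fl/fl. Relative to the median of all genes, 0 of the 10 genes were 1.5-fold higher and 3 were 1.5-fold lower, namely Colec11, Rgs5 and Pdgfrb, where the shares over all genes were 2.38% and 2.77%. Because of this shift, each ratio near 0 depends on the scaling.

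**Figure D1:**
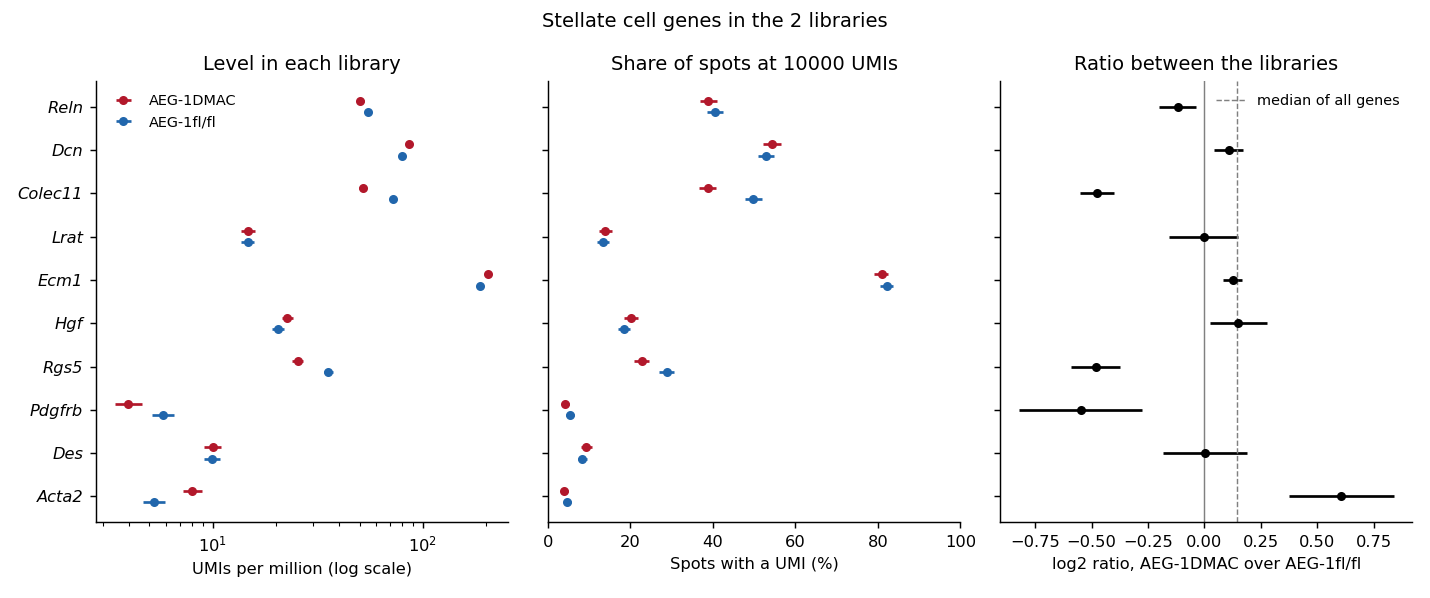
Stellate cell genes in the 2 libraries. Left, level in CPM on a log axis with Poisson intervals; middle, percentage of spots with a UMI after thinning every spot to 10000 UMIs, with exact binomial intervals; right, log2 ratio of AEG-1DMAC over AEG-1fl/fl with conditional binomial intervals, where the dashed line is the median of all genes at 0.15. Colec11, Rgs5 and Pdgfrb lie left of 0, and Acta2 lies right of the dashed line.

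Among the genes that mark the quiescent cell, Lrat and Reln differed little and Colec11 differed most. Lrat (lecithin-retinol acyltransferase, which esterifies retinol for storage; GRCm38 chromosome 3, 82892579 to 82903973, minus strand) had 668 UMIs or 14.7 CPM in AEG-1DMAC and 741 UMIs or 14.7 CPM in AEG-1fl/fl. Its log2 ratio was -0.00 (-0.16 to 0.15). The extracellular glycoprotein gene Reln (reelin; chromosome 5, 21884454 to 22344702, minus strand) had 50.5 CPM in AEG-1DMAC and 54.8 CPM in AEG-1fl/fl, for a ratio on the log2 scale of -0.12 (-0.20 to -0.04). Colec11 (collectin 11, a soluble lectin of the complement system; chromosome 12, 28594173 to 28623377, minus strand) had 2356 UMIs or 51.8 CPM in AEG-1DMAC and 3630 UMIs or 72.1 CPM in AEG-1fl/fl. The log2 ratio of Colec11 was -0.48 (-0.55 to -0.40), and 2.48% of the 6933 genes had a lower one. In sections such as these, fewer stellate cells and less RNA per cell cannot be told apart.

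The share of spots with Colec11 followed its level. At an equal depth of 10000 UMIs per spot, which left 2114 and 2434 spots and dropped 26 and 106, Colec11 was found in 38.7% of AEG-1DMAC spots (36.6% to 40.8%), and in AEG-1fl/fl its share was 49.8% (47.8% to 51.8%). Unthinned, the shares were 62.2% and 70.4%. The shares of Reln (38.9% and 40.5%) and of Lrat (13.9% and 13.3%) had overlapping intervals. Over the 10 genes, intervals lay apart for 2, Colec11 and Rgs5, both lower in AEG-1DMAC, and 8 overlapped. Over all genes the intervals lay apart for 6.4% in the lower and 29.8% in the higher direction.

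The matrix genes Dcn and Ecm1 were close to the median gene. Dcn (decorin, a small proteoglycan that binds collagen fibrils; chromosome 10, 97479609 to 97518143, plus strand) had 86.0 CPM in AEG-1DMAC and 79.8 CPM in AEG-1fl/fl, for a ratio on the log2 scale of 0.11 (0.04 to 0.17). A UMI of Dcn was found in 54.4% and 52.9% of spots at equal depth. For Ecm1 (extracellular matrix protein 1, a secreted glycoprotein; chromosome 3, 95734147 to 95739569, minus strand) the levels were 204 and 187 CPM, giving a log2 ratio of 0.13 (0.08 to 0.17), with shares of 80.9% and 82.2%. Both genes were slightly below the median of all genes, by -0.04 and -0.02, so their sign turns with the scaling.

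The growth factor gene Hgf and the receptor gene Pdgfrb went different ways. Hgf (hepatocyte growth factor, made by stellate cells and acting on hepatocytes through Met; chromosome 5, 16553495 to 16620152, plus strand) had 22.7 CPM in AEG-1DMAC and 20.5 CPM in AEG-1fl/fl. Its log2 ratio of 0.15 (0.02 to 0.28) was that of the median gene, and it was found in 20.1% and 18.4% of spots at equal depth. Pdgfrb (PDGF receptor beta, the receptor for PDGF on stellate cells and pericytes; chromosome 18, 61045150 to 61085061, plus strand) rested on 181 and 293 UMIs, or 3.98 and 5.82 CPM. The log2 ratio of Pdgfrb was -0.55 (-0.82 to -0.28), and its shares of spots, 4.12% (3.31% to 5.05%) and 5.26% (4.41% to 6.22%), overlapped.

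Of the pericyte and contractile genes, Rgs5 was lower in AEG-1DMAC, Des was level and Acta2 was higher. Rgs5 (regulator of G protein signalling 5, a pericyte marker; chromosome 1, 169655501 to 169695813, plus strand) had 25.4 CPM in AEG-1DMAC and 35.5 CPM in AEG-1fl/fl, for a ratio on the log2 scale of -0.48 (-0.59 to -0.37). Its share of spots was 22.7% (20.9% to 24.6%) in AEG-1DMAC and 28.8% (27.0% to 30.6%) in AEG-1fl/fl. Des (desmin, an intermediate filament of muscle cells and of rodent stellate cells; chromosome 1, 75360329 to 75368579, plus strand) had 10.0 CPM in both libraries, from 455 and 503 UMIs, so that its log2 ratio was 0.00 (-0.18 to 0.19). Acta2 (smooth muscle alpha-actin, the usual marker of myofibroblasts; chromosome 19, 34241090 to 34255590, minus strand) had 364 UMIs or 8.01 CPM in AEG-1DMAC and 265 UMIs or 5.27 CPM in AEG-1fl/fl. The log2 ratio of Acta2 was 0.60 (0.37 to 0.84), and 96.1% of the 6933 genes had a lower one.

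The higher level of Acta2 did not come with more spots. At equal depth it was found in 3.88% of AEG-1DMAC spots (3.10% to 4.79%) and, in AEG-1fl/fl, in 4.64% (3.84% to 5.56%). No order of the libraries was read from these shares. The Acta2 UMIs of AEG-1DMAC lay in few spots: the highest spot held 22 UMIs against 10 in AEG-1fl/fl, and the 10 highest spots held 35.4% of all its UMIs against 18.1%. All 10 of these AEG-1DMAC spots, and 8 of the 10 of AEG-1fl/fl, were among the spots richest in smooth muscle genes. For Rgs5 the distribution was the other way round, as its highest spot held 6 UMIs in AEG-1DMAC and 28 UMIs in AEG-1fl/fl, and 8 of the 10 highest AEG-1fl/fl spots but 1 of the 10 highest AEG-1DMAC spots were rich in smooth muscle genes.

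To set vessel wall beside sinusoid, spots were grouped by genes of other cell types that include none of the 10. The 5% of spots with the largest share of UMIs from smooth muscle genes (Myh11, Tagln, Cnn1, Myl9, Actg2, Lmod1, Mylk and Synpo2) were 107 in AEG-1DMAC and 127 in AEG-1fl/fl. They are called vessel-wall spots, although not each of them need hold a vessel wall. Mylk alone gave 1562 of the 2842 list UMIs of AEG-1DMAC and 1253 of the 2663 of AEG-1fl/fl. Of the stellate cell genes, 4 were at least 1.5-fold higher in these spots than in the other spots of the same library in AEG-1DMAC (Dcn, Pdgfrb, Des and Acta2), and also 4 in AEG-1fl/fl (Rgs5, Pdgfrb, Des and Acta2). The shares over all genes were 6.72% and 4.7%, and 0 of the 10 genes were 1.5-fold lower in either library, against 0.606% and 0.245%. Acta2 had 112 CPM in these spots of AEG-1DMAC and 2.61 CPM in its other spots, giving a log2 ratio of 5.42 (5.10 to 5.76). In AEG-1fl/fl the values of Acta2 were 38.0 and 3.78 CPM, giving a log2 ratio of 3.33 (2.94 to 3.71). These few spots held 69.0% of all Acta2 UMIs of AEG-1DMAC and 31.3% of those of AEG-1fl/fl. The smooth muscle list itself was at 451 CPM in these spots of AEG-1DMAC and 273 CPM in those of AEG-1fl/fl. The spot sets thus differ in smooth muscle content, and no difference in the place of Acta2 is read from the shares.

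Des and Pdgfrb were raised there in both libraries, and Rgs5 in one. Des had a log2 ratio of 2.44 (2.11 to 2.77) in AEG-1DMAC and 1.79 (1.40 to 2.16) in AEG-1fl/fl, and Pdgfrb had 1.56 (0.88 to 2.19) and 1.63 (1.08 to 2.13). Rgs5 was at 1.56 (1.35 to 1.77) in AEG-1fl/fl, with 96.7 CPM in vessel-wall spots and 32.7 CPM elsewhere. In AEG-1DMAC the same ratio of Rgs5 was 0.29 (-0.08 to 0.64), with 30.8 and 25.2 CPM. Dcn was at 0.69 (0.51 to 0.86) in AEG-1DMAC and 0.15 (-0.07 to 0.36) in AEG-1fl/fl, and Colec11 at 0.31 (0.05 to 0.55) and 0.11 (-0.12 to 0.33). For Reln, Lrat, Ecm1 and Hgf the interval included 0 in each library.

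**Figure D2:**
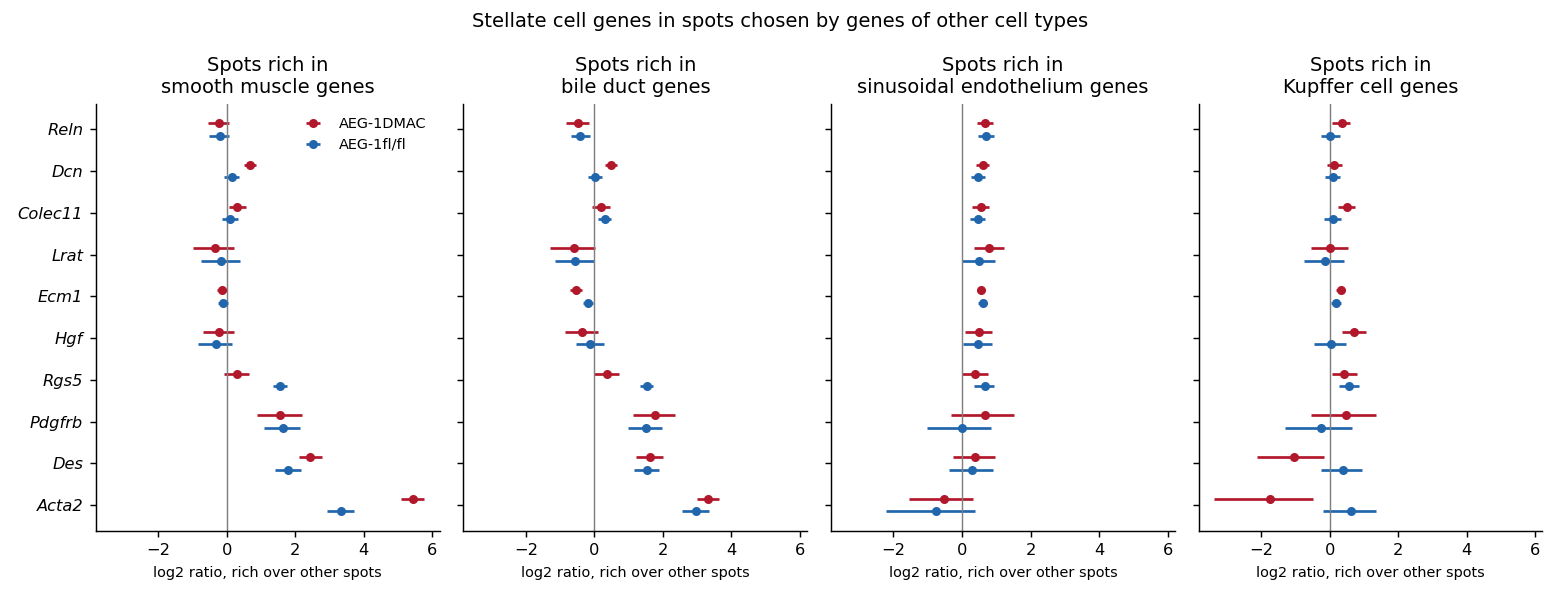
Stellate cell genes in spots chosen by genes of other cell types. Each panel gives the log2 ratio of CPM in the 5% of spots richest in the genes of the named cell type over all other spots of the same library, with conditional binomial intervals; red is AEG-1DMAC and blue AEG-1fl/fl. Acta2, Des and Pdgfrb lie far right in the smooth muscle and bile duct panels, as does Rgs5 in AEG-1fl/fl. In the sinusoidal endothelium panel the intervals of the upper 7 genes lie right of 0.

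The sinusoid gave another set of genes, which shared Dcn and Colec11 in AEG-1DMAC and Rgs5 in AEG-1fl/fl with the vessel wall. These spot sets also differed in their position along the lobule, which is given below with the zones. The sinusoid spots were the 5% of spots richest in sinusoidal endothelium genes (Stab2, Clec4g, Oit3, Kdr, Plvap, Gpr182, Dnase1l3 and Lyve1). In each library the interval lay above 0 there for 7 of the 10 genes, Reln, Dcn, Colec11, Lrat, Ecm1, Hgf and Rgs5. The share of all genes with such an interval was not counted, so no result is read from that number. A ratio of at least 1.5-fold was reached by 3 of the 10 genes in each library, by Reln in both, by Dcn and Lrat in AEG-1DMAC and by Ecm1 and Rgs5 in AEG-1fl/fl, where the shares over all genes were 0.952% in AEG-1DMAC and 1.49% in AEG-1fl/fl, and 0 were lower, against 1.1% and 1.57%. Reln had 78.6 against 49.2 CPM in AEG-1DMAC, giving a log2 ratio of 0.67 (0.43 to 0.91), and 87.1 against 53.6 CPM in AEG-1fl/fl, for a ratio on the log2 scale of 0.70 (0.46 to 0.93). For Lrat the ratios were 0.79 (0.34 to 1.22) and 0.51 (0.00 to 0.97), and for Ecm1 0.56 (0.43 to 0.68) and 0.61 (0.48 to 0.74). Acta2, Des and Pdgfrb had intervals that included 0 in both libraries, with Acta2 at -0.52 and -0.76, Des at 0.38 and 0.29 and Pdgfrb at 0.67 and -0.00. They rested on few UMIs in these spots, as with 12 and 11 for Pdgfrb, so no absence from the sinusoid is read.

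Spots rich in bile duct genes (Krt7, Krt19, Epcam, Spp1, Sox9 and Cldn7), which mark portal tracts, resembled the vessel-wall spots. In AEG-1DMAC 3 of the 10 genes and in AEG-1fl/fl 4 were at least 1.5-fold higher there, where the shares over all genes were 8.38% and 5.71%, and 0 were lower, against 1.76% and 1.36%. Acta2 was at 3.32 and 2.96, Pdgfrb at 1.76 and 1.496, and Des at 1.61 and 1.53, in AEG-1DMAC and AEG-1fl/fl respectively. The other gene in AEG-1fl/fl was Rgs5, at 1.52 (1.33 to 1.72), against 0.36 (-0.00 to 0.71) in AEG-1DMAC. Reln was lower around bile ducts, at -0.48 (-0.81 to -0.16) and -0.41 (-0.69 to -0.14), and so was Ecm1, at -0.54 (-0.70 to -0.37) and -0.18 (-0.32 to -0.04). Lrat was at -0.60 (-1.28 to 0.01) in AEG-1DMAC and -0.55 (-1.15 to -0.01) in AEG-1fl/fl. Of the vessel-wall spots, 37.4% in AEG-1DMAC and 32.3% in AEG-1fl/fl were also among the bile duct spots, so the groups are not separate regions. In spots rich in Kupffer cell genes (Clec4f, Vsig4, Cd5l, Marco, Timd4 and C1qa), 1 of the 10 genes in AEG-1DMAC and 0 in AEG-1fl/fl were 1.5-fold higher, where the shares over all genes were 1.75% and 2.18%. That gene was Hgf, at 0.72 (0.35 to 1.06) in AEG-1DMAC and 0.03 (-0.45 to 0.48) in AEG-1fl/fl. Regardless of size, the interval in these spots lay above 0 for Reln, Colec11, Ecm1, Hgf and Rgs5 in AEG-1DMAC. In AEG-1fl/fl it did so for Ecm1 and Rgs5. All of these genes also had intervals above 0 in sinusoid spots, and the share of all genes with such an interval was not counted. Lower by 1.5-fold were 2 genes in AEG-1DMAC, Des and Acta2 with 10 and 5 UMIs in these spots, and 0 in AEG-1fl/fl, against 1.73% and 2% of all genes.

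The ratio between the genotypes was then taken inside and outside the vessel-wall spots. Inside, Acta2 had 112 CPM in AEG-1DMAC and 38.0 CPM in AEG-1fl/fl, for a ratio on the log2 scale of 1.56 (1.20 to 1.94). Outside, Acta2 was lower in AEG-1DMAC, at -0.53 (-0.88 to -0.19). The smooth muscle list was at 451 and 273 CPM inside, and how far vessel wall left outside sets these ratios was not tested. Rgs5 was at -1.65 (-2.06 to -1.25) inside and -0.38 (-0.49 to -0.27) outside, and Dcn at 0.61 (0.35 to 0.88) and 0.07 (0.01 to 0.14). Colec11 had an interval that included 0 inside, at -0.29 (-0.62 to 0.04), and was at -0.49 (-0.57 to -0.41) outside. When all vessel-wall and bile duct spots were left out (174 and 213 spots), the log2 ratio of Acta2 was -0.65 (-1.03 to -0.27) and that of Rgs5 -0.33 (-0.45 to -0.22), while Colec11 stayed at -0.48.

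Genes of portal fibroblasts were higher in AEG-1DMAC, as Acta2 was, while those of smooth muscle were mixed. The 8 smooth muscle genes summed to 62.5 CPM in AEG-1DMAC and 52.9 CPM in AEG-1fl/fl, for a ratio on the log2 scale of 0.24 (0.16 to 0.32), and to 451 and 273 CPM within the vessel-wall spots. The 8 portal fibroblast genes (Eln, Mfap4, Fbln1, Thy1, Col15a1, Gsn, C7 and Mgp) summed to 61.1 and 33.5 CPM, giving a log2 ratio of 0.87 (0.78 to 0.96). Of these lists 0 genes were at 0 in both libraries. Of the portal fibroblast genes 6 of 8 were at least 1.5-fold higher and 0 lower, with C7 at 1.75, Mfap4 at 1.67 and Gsn at 1.40, and of 6 smooth muscle genes that reached 1 CPM 2 were higher, Actg2 at 1.40 and Myh11 at 0.62, whereas Tagln was at -0.24 and Myl9 at -0.20. Mylk gave 1562 of the 2842 smooth muscle UMIs of AEG-1DMAC, and relative to the median gene the sum of the list was at 0.09. At that mean, 5.28% of 11178 genes were higher and 3.9% lower. How far the vessels cut in each section set the level of Acta2 was not tested.

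Position along the lobule was read from an index of hepatocyte genes, which subtracts the mean of 6 zone 1 markers (Arg1, Cyp2f2, Gls2, Hal, Hsd17b13, Pck1) from that of 3 zone 3 markers (Cyp1a2, Cyp2e1, Oat). Zone 1 surrounds the portal tract and zone 3 the central vein. Spots were ranked within each library and divided into 3 equal parts, which therefore need not cover the same positions in both sections. The spot sets above were spread unequally over these parts. In AEG-1DMAC and AEG-1fl/fl, the zone 1 part held 56.1% and 45.7% of vessel-wall spots and 83.2% and 65.4% of bile duct spots. It held 19.6% and 17.3% of sinusoid spots, and the zone 3 part held 35.5% and 53.5% of these. How far position along the lobule sets the ratios in those spots was not tested. Reln, Dcn, Lrat, Ecm1 and Hgf were higher in the zone 3 part than in the zone 1 part in both libraries. Pdgfrb and Acta2 were higher in the zone 1 part, while Colec11, Rgs5 and Des had intervals across 0 in AEG-1DMAC. The interval of the zone 3 over zone 1 ratio lay above 0 for 5 of the 10 genes in AEG-1DMAC and 7 in AEG-1fl/fl, where the shares over all genes were 31.4% and 28.4%. It lay below 0 for 2 and 3 genes, against 10.4% and 9.23% of all genes. At least 1.5-fold higher in the zone 3 part were 1 gene in AEG-1DMAC and 3 in AEG-1fl/fl, against 2.97% and 2.84% of all genes, and in the zone 1 part 2 and 1, against 2.03% and 1.75%. The median log2 ratio of the 10 genes was 0.26 in AEG-1DMAC and 0.46 in AEG-1fl/fl, and that of all genes 0.09 and 0.07.

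Reln rose toward the central vein in both libraries. In AEG-1fl/fl it went from 39.1 CPM in the zone 1 part through 56.5 CPM in the middle to 69.0 CPM in the zone 3 part, giving a log2 ratio of 0.82 (0.68 to 0.96). In AEG-1DMAC the values of Reln were 38.8, 53.9 and 58.9 CPM, giving a log2 ratio of 0.60 (0.45 to 0.76). Lrat went from 11.7 to 18.4 CPM in AEG-1fl/fl, at 0.66 (0.39 to 0.92), and from 193 to 240 UMIs in AEG-1DMAC, at 0.32 (0.04 to 0.60). Both matrix genes were higher in the zone 3 part as well. Dcn was at 0.60 (0.49 to 0.72) in AEG-1fl/fl and 0.53 (0.42 to 0.65) in AEG-1DMAC, and Ecm1 at 0.58 (0.50 to 0.65) and 0.40 (0.32 to 0.47). Hgf was at 0.39 (0.16 to 0.61) and 0.32 (0.09 to 0.55). In AEG-1DMAC neither Ecm1 nor Hgf rose past the middle part. Ecm1 had 223 CPM in the middle and 220 CPM in the zone 3 part there, and Hgf 25.9 and 23.5 CPM.

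Colec11 differed little between the end parts, at 0.17 (0.05 to 0.29) in AEG-1fl/fl and -0.14 (-0.29 to 0.01) in AEG-1DMAC. It was highest in the middle part of each library. The log2 ratio of the middle over both ends was 0.18 (0.08 to 0.28) in AEG-1fl/fl and 0.20 (0.08 to 0.32) in AEG-1DMAC. Rgs5 was at 0.54 (0.37 to 0.71) in AEG-1fl/fl and 0.20 (-0.01 to 0.42) in AEG-1DMAC. Pdgfrb was higher in the zone 1 part in both, at -0.55 (-0.98 to -0.12) and -0.94 (-1.52 to -0.38). Acta2 had the largest gradient, from 180 UMIs or 11.9 CPM in the zone 1 part to 30 UMIs or 1.999 CPM in the zone 3 part of AEG-1DMAC, at -2.58 (-3.19 to -2.01), and from 7.67 to 3.43 CPM in AEG-1fl/fl, at -1.16 (-1.64 to -0.70). Des was at -0.49 (-0.81 to -0.17) in AEG-1fl/fl and -0.28 (-0.61 to 0.04) in AEG-1DMAC. Without vessel-wall and bile duct spots the interval of Acta2 included 0 in both libraries, at -0.69 (-1.44 to 0.03) in AEG-1DMAC and -0.45 (-1.01 to 0.10) in AEG-1fl/fl. Des was then on the other side in AEG-1DMAC, at 0.46 (0.07 to 0.85).

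**Figure D3:**
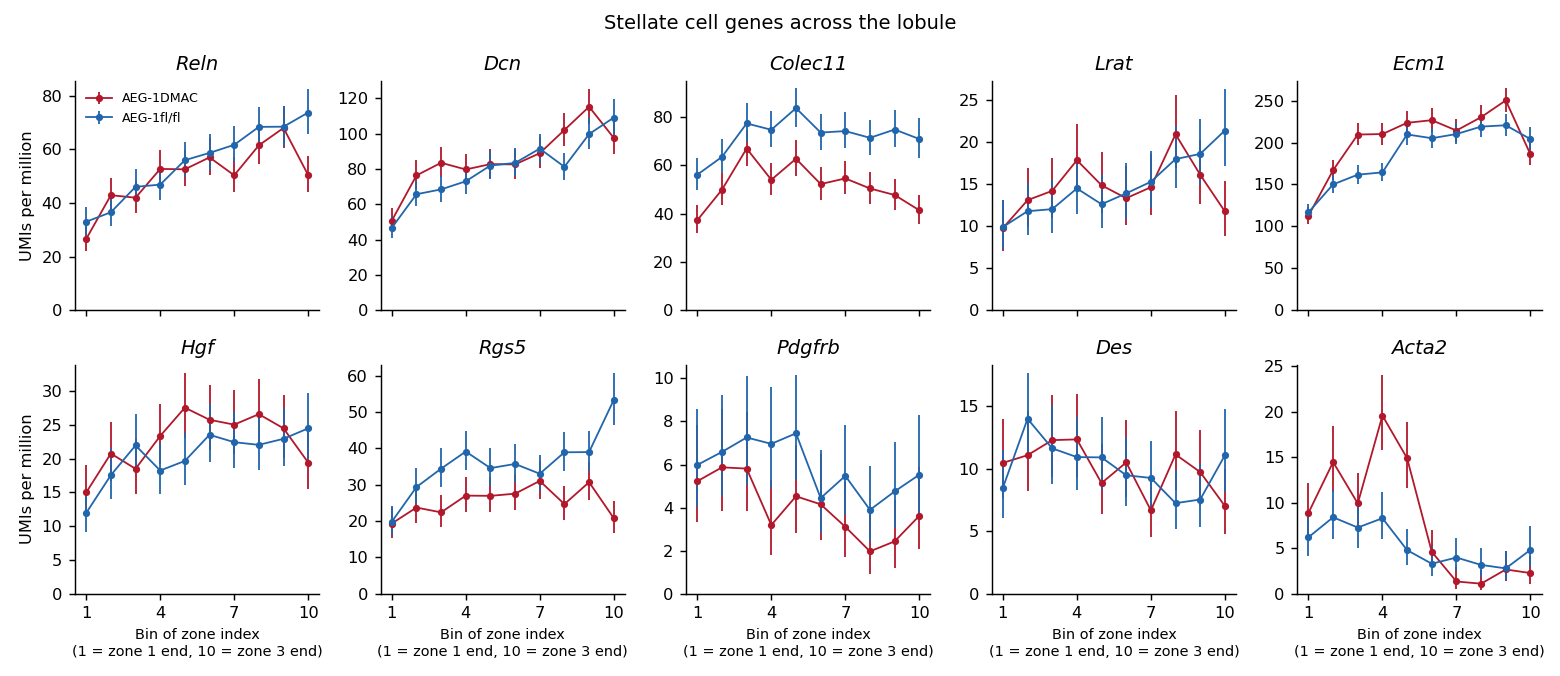
Stellate cell genes across the lobule. Each panel gives CPM in 10 equal bins of spots along the zone index, from the zone 1 end (bin 1) to the zone 3 end (bin 10), with Poisson intervals; red is AEG-1DMAC and blue AEG-1fl/fl. Reln, Dcn, Lrat, Hgf and Rgs5 are highest in bin 10 of AEG-1fl/fl but lower in bin 10 than in bin 9 of AEG-1DMAC. Acta2 peaks at 19.6 CPM in bin 4 of AEG-1DMAC.

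In 10 bins of the index, the ends of the lobule stood out. Reln, Dcn, Colec11, Lrat, Ecm1, Hgf and Rgs5 were lowest in the bin nearest to zone 1 in both libraries, as with Ecm1 at 113 CPM in AEG-1DMAC and 117 CPM in AEG-1fl/fl. At the zone 3 end the libraries parted for Reln, Dcn, Lrat, Hgf and Rgs5, which were highest in the last bin of AEG-1fl/fl. In AEG-1DMAC each of them was lower in bin 10 than in bin 9, and of these only Reln and Rgs5 had intervals apart. In AEG-1fl/fl Reln reached its highest value, 73.8 CPM, in the last bin, and Rgs5 did so with 53.3 CPM. In AEG-1DMAC Reln went from 68.0 CPM in bin 9 to 50.4 CPM in bin 10 and Rgs5 from 30.7 to 20.8 CPM. Ecm1 was lower in bin 10 than in bin 9 in both libraries, at 186 after 250.4 CPM in AEG-1DMAC and 204.2 after 221 CPM in AEG-1fl/fl. The zone 3 over zone 1 ratio was lower in AEG-1DMAC for 9 of the 10 genes, and the interval of the difference lay below 0 for 5 of them and above 0 for 0, where the shares over all genes were 8.37% and 9.04%. These 5 were Reln at -0.22 (-0.42 to -0.01), Ecm1 at -0.18 (-0.29 to -0.07), Colec11 at -0.30 (-0.49 to -0.12), Rgs5 at -0.34 (-0.60 to -0.07) and Acta2 at -1.41 (-2.13 to -0.70). The median difference over the 10 genes was -0.26 and over all genes 0.01.

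By part of the lobule, the ratio of AEG-1DMAC over AEG-1fl/fl was therefore lowest in the zone 3 part for several genes. From the zone 1 part through the middle to the zone 3 part, Colec11 was at -0.33, -0.46 and -0.64, Rgs5 at -0.33, -0.42 and -0.66, and Pdgfrb at -0.40, -0.56 and -0.79. Reln was at -0.01, -0.07 and -0.23. Acta2 changed its side, with 0.64 (0.30 to 0.98) in the zone 1 part, 1.09 in the middle and -0.78 (-1.47 to -0.11) in the zone 3 part, where it rested on 30 and 56 UMIs. The median over all genes was 0.13, 0.16 and 0.15 in these parts.

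Further genes of the stellate cell were read beside the 10. Of 16 other stellate cell genes that reached a mean of 1 CPM, 1 was at least 1.5-fold higher in AEG-1DMAC and 3 were lower, against 5.28% and 3.9% of all genes, with a median log2 ratio of -0.14. Relative to the median gene 1 was higher and 5 were lower, and 13 of the 16 lay below it. Shares over all genes relative to the median gene were counted only at a mean of 10 CPM, at 2.38% higher and 2.77% lower. Without this reference, the 3 lower genes were Ngfr at -1.02, Sod3, an extracellular superoxide dismutase, at -0.73 and Abcc9 at -0.68. The higher gene was Hand2, a transcription factor of quiescent stellate cells, at 0.97. The genes of this list summed to 590.1 CPM in AEG-1DMAC and 650.3 CPM in AEG-1fl/fl, so that the log2 ratio of the sums was -0.14 (-0.16 to -0.12). Of 5 genes reported for portal-side stellate cells 0 were higher and 3 lower (Ngfr, Rgs4 at -0.78 and Itgb3 at -0.71), and of 4 for central-side stellate cells 0 were higher and 1 lower (Spon2 at -1.45).

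Most genes of activation and matrix lay below the median gene. Of 17 with a mean of at least 1 CPM, 1 was at least 1.5-fold higher in AEG-1DMAC, the crosslinking enzyme gene Loxl1 at 0.61, and 3 were lower: Sparc, a collagen-binding protein, at -0.85, Loxl2 at -0.80 and Postn at -0.69. The shares over all genes were again 5.28% and 3.9%. Relative to the median gene 0 were higher and 4 lower, and 14 of the 17 lay below it. Shares over all genes for that count were taken only at a mean of 10 CPM, at 2.38% higher and 2.77% lower. The median of the 17 genes was -0.23. Col1a1 was at -0.16 and Col3a1 at -0.39, while Timp2 was highest among those with a mean of at least 10 CPM, at 0.48.

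**Figure D4:**
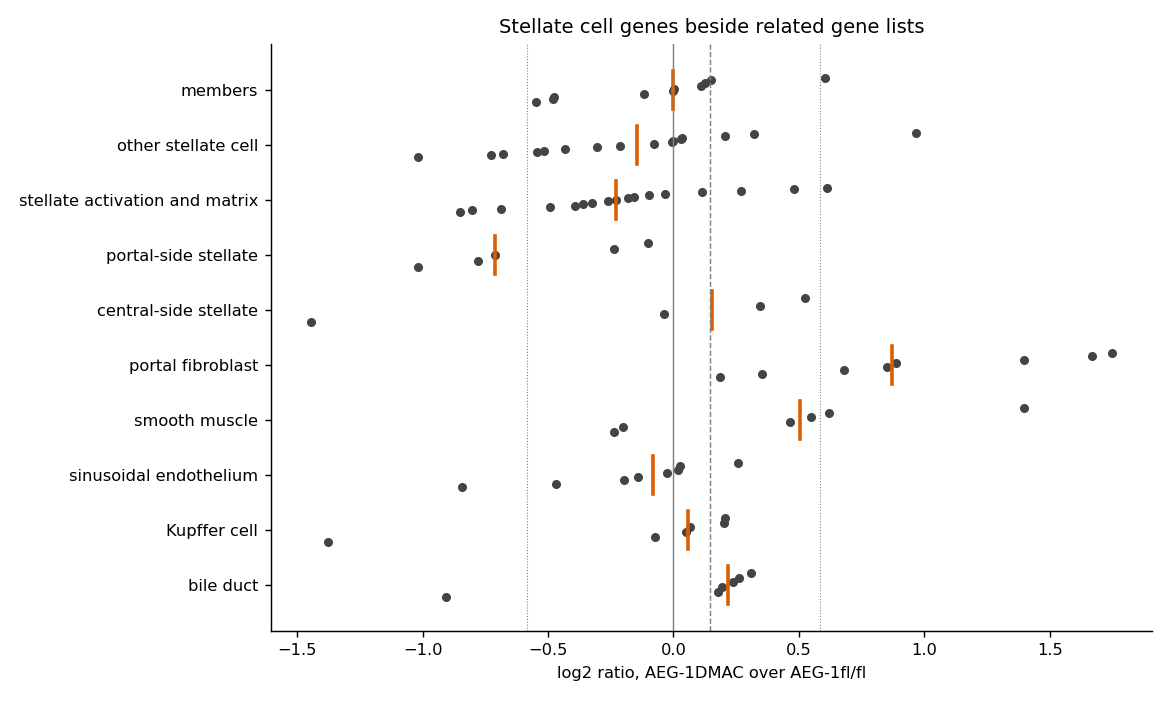
Stellate cell genes beside related gene lists. Each point is 1 gene with its log2 ratio of AEG-1DMAC over AEG-1fl/fl, orange bars are list medians, the dashed line is the median of all genes at 0.15 and dotted lines mark 1.5-fold; the first row holds the 10 stellate cell genes and the other rows genes that reach a mean of 1 CPM. The portal fibroblast genes all lie right of 0, with a median of 0.87, and the median of the portal-side stellate cell genes lies left of 0 at -0.71.

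Pathways around the 10 genes were mixed, and their counts at 1.5-fold stand against 5.28% higher and 3.9% lower over all genes, so that 1 gene in a short list is near that background. Of 13 retinoid genes, 3 were higher (Aldh1a1 at 0.91, Cyp26b1 at 0.85 and Cyp26a1 at 0.75, which make and degrade retinoic acid) and 0 lower, with a median of 0.20. Of 5 PDGF genes 1 was higher (Pdgfc at 0.62) and 1 lower (Pdgfb, a ligand of Pdgfrb, at -0.70). The HGF list had 6 genes that reached 1 CPM, of which 1 was higher, the inhibitor gene Spint1 at 0.68 from 58 and 40 UMIs, and 0 were lower, and the receptor gene Met was at 0.24. Among 8 genes of the lectin pathway of complement, in which Colec11 acts, 0 were higher and 0 lower, with Colec10, the partner of Colec11, at 0.04 and a median of 0.08. Of the reelin pathway only Vldlr reached 1 CPM, at -0.30. The sinusoidal endothelium genes had a median of -0.08 and summed to 633 CPM in AEG-1DMAC and 653 CPM in AEG-1fl/fl, 0 higher and 1 lower of 8 (Lyve1 at -0.84). The Kupffer cell genes had a median of 0.06, 0 higher and 1 lower of 6 (Marco at -1.38), and the bile duct genes 0.22, 0 higher and 1 lower of 6 (Sox9 at -0.91).

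Finally, co-variation over spots was described within each section, as Pearson correlations of depth-adjusted residuals over 2140 spots of AEG-1DMAC and 2540 spots of AEG-1fl/fl. The spots of a section share its library and slide, neighbouring spots are not independent, and no p was computed. Of 45 pairs among the 10 genes, 39 were positive in each library and 38 in both. The median correlation was 0.07 in both libraries, while that of a stellate cell gene with 6631 other genes was -0.00 in AEG-1DMAC and 0.00 in AEG-1fl/fl, and 10 pairs were above 0.1 in both. Several genes were sparse, Lrat with at most 5 UMIs in a spot, which limits how high a correlation can be.

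The highest pairs were those of Ecm1 with other sinusoid genes and those among the vessel-wall genes. Ecm1 went with Dcn at 0.30 in AEG-1DMAC and 0.27 in AEG-1fl/fl, with Reln at 0.27 and 0.24, and with Colec11 at 0.27 and 0.21. Des and Acta2 went together at 0.51 and 0.30, but at 0.03 and 0.01 once vessel-wall and bile duct spots were left out, and Dcn with Ecm1 stayed at 0.33 and 0.29. Rgs5 went with Acta2 at 0.45 in AEG-1fl/fl and 0.04 in AEG-1DMAC. In AEG-1fl/fl this pair was at 0.21 with log-normalised values in place of residuals, and at 0.03 without vessel-wall and bile duct spots. Dcn was correlated with genes of both kinds, with Des at 0.12 in each library, with Acta2 at 0.16 and 0.07, and with Rgs5 at 0.10 and 0.17. Lrat and Acta2 were at -0.04 and -0.01.

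**Figure D5:**
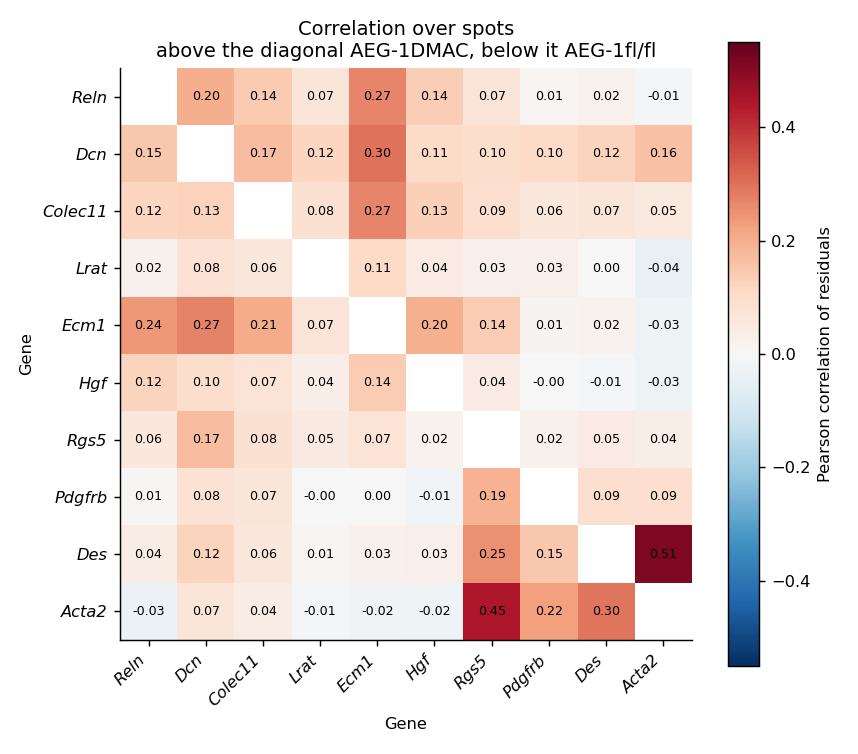
Correlation over spots between the 10 stellate cell genes. Each cell is the Pearson correlation of depth-adjusted residuals of 1 pair, above the diagonal over the 2140 spots of AEG-1DMAC and below it over the 2540 spots of AEG-1fl/fl. Ecm1 has values from 0.21 to 0.30 with Reln, Dcn and Colec11, and the corner of Rgs5, Pdgfrb, Des and Acta2 holds the highest values, 0.51 for Des with Acta2 in AEG-1DMAC and 0.45 for Rgs5 with Acta2 in AEG-1fl/fl.

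The genes most like each of the 10 over spots, by the mean correlation of both libraries, ranged from smooth muscle and matrix genes to abundant hepatocyte genes. Acta2 was closest to Tagln (0.83 in AEG-1DMAC and 0.50 in AEG-1fl/fl), Col3a1 (0.66 and 0.40) and Eln (0.68 and 0.36), and Des to Tagln (0.58 and 0.30), Col3a1 and Flna. Dcn was closest to Bgn (0.34 and 0.19), Tpt1 and Col3a1, and Pdgfrb to Col3a1 (0.16 and 0.21), Timp3 and Cd74. Colec11 was closest to Sod3 (0.18 and 0.22), Tpt1 and Plvap. Reln, Ecm1 and Hgf were each closest to the abundant hepatocyte gene Apoa2, at 0.19 and 0.21, 0.30 and 0.27, and 0.15 and 0.11. For Reln and Ecm1 the next included Mup11, one of a family of near-identical copies and therefore uncertain, besides Pon1 for Reln and Sod3 for Ecm1. Lrat, with Tpt1, Fth1 and Apoa2, reached a mean of at most 0.101. Rgs5 was closest to Cd74, Crip1 and Tmsb4x, genes abundant in immune and stromal cells, at 0.45, 0.44 and 0.42 in AEG-1fl/fl but 0.07, 0.07 and 0.08 in AEG-1DMAC. The summed residuals of the 10 genes were closest to Col3a1, Tagln, Bgn, Sparc, Igfbp7, Tmsb4x, Flna and Eln, from 0.53 and 0.41 for Col3a1 to 0.49 and 0.28 for Eln.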

How the data were processed

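Livers were fixed in formalin and embedded in paraffin, and 10x Visium libraries were made with mouse probe pairs. The authors ran Space Ranger 2.0.1 on mm10, and deposited, for every gene in every spot, the unnormalized UMI count. Per the labels, Seurat 4.3.0 was also used. Probes bind unequally well, so levels were not compared between genes. Spots with at most 50000 UMIs and 100 to 7000 genes were kept, which are the thresholds of the study. The study reports 2543 AEG-1fl/fl and 2149 AEG-1DMAC spots after its filter, the same numbers as deposited. Here the filter removed 3 and 9 of these. UMIs were summed and scaled to CPM. Ratios had exact conditional binomial, shares Clopper-Pearson and levels exact Poisson 95% intervals. Thinning was seeded. Correlations used Pearson residuals (negative binomial, theta 100). No test was run, with 1 library per genotype. TMM factors came from edgeR 4.0.16 (R 4.3.3), the rest from numpy 2.4.6, scipy 1.17.1 and pandas 2.3.3. Scripts were tested on simulated data.

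The 10 genes and all lists were chosen with earlier results of these data known. Genes named were the 10, list genes past 1.5-fold, some of those with the highest or lowest ratio in a list (mean 10 CPM or more), and the 3 genes most similar to each (8 for the sum). Col1a1, Met and Colec10 fall outside this rule and were named for their roles after their values were seen. Gene coordinates are from GENCODE M21 (GRCm38, the mm10 assembly), another release than the authors counted on. Promoters are from RefSeq. Alternatives were other scalings, spot sets, depths, zone cuts and thresholds. Spot positions were not used here, and some genes of the lists are not reported here.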

Additional observations from a re-analysis of the deposited data

Results flagged for a closer look

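Acta2 is listed because its ratio between the genotypes lay on opposite sides at the 2 ends of the lobule. Its log2 ratio of AEG-1DMAC over AEG-1fl/fl was 0.64 in the zone 1 part, from 180 and 127 UMIs, and -0.78 in the zone 3 part, from 30 and 56 UMIs. With 1 library per genotype this difference was not tested. Spots rich in smooth muscle genes held 69.0% of the Acta2 UMIs of AEG-1DMAC and 31.3% of those of AEG-1fl/fl. The smooth muscle list itself was at 451 and 273 CPM in these spots, so they are not equal sets.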

How the results depend on the processing

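Each setting was changed alone and all were planned. The summed log2 ratio of the 10 genes, -0.03, was -0.149 with TMM factors, -0.167 with the 50 most abundant genes left out of the library size and -0.171 relative to the median gene, since these apply 1 factor to all genes (medians over all genes 0.02, 0.00 and 0). Under each of these 3 settings 0 of the 10 genes were 1.5-fold higher, in place of 1, and 3 were lower, in place of 0. Dcn then turned to -0.016, -0.034 and -0.038, and Ecm1 to -0.017 and -0.021 under the last 2. Without vessel-wall and bile duct spots 0 were higher and 1 lower, Acta2, which turned to -0.648. Among spots matched on UMIs 1 was lower, and at 2-fold 0 were higher. With the outer 10% of spots at each end, 3 genes lay higher in zone 3 and 1 in zone 1 in AEG-1DMAC, and 0 in zone 1 in AEG-1fl/fl, where Des turned to 0.386, and fewer spots widened the intervals. Without vessel-wall and bile duct spots the zone 1 counts were 1 and 0. Causes not named here were not tested. Of the other values, 176 moved by less than their interval and 111 by more, 40 of these being shares of spots, which follow the depth. No paired analysis was possible because each genotype had 1 library with no replicate number. Depth limits Pdgfrb, Des and Acta2 most, with 181 to 503 UMIs a library.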
